A study of Mus musculus with 23 samples.

Results

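The 27 genes described here encode enzymes of the mevalonate and sterol synthesis pathway, the proteins that carry, hold back and cut the SREBP transcription factors, and 1 sterol carrier. They were chosen by name for their role in cholesterol synthesis. The rule uses no measured value, but the set was proposed with earlier results of these data known. The genes are 27 of the 55416 gene rows of the count tables. All 27 passed the filter on low counts, which kept 13405 genes for testing. Mevalonate to isoprenoid steps were represented by Acat2, Hmgcs1, Mvk, Pmvk, Mvd, Idi1, Fdps and Ggps1, and the squalene and sterol steps by Fdft1, Sqle, Lss, Cyp51, Tm7sf2, Lbr, Msmo1, Nsdhl, Hsd17b7, Ebp, Sc5d and Dhcr7. SREBP regulation was represented by Srebf2, Scap, Insig1, Insig2, Mbtps1 and Mbtps2, and sterol transport by Stard4. RNA-seq libraries came from C57BL/6JRccHsd mice, all labelled female, 1 library per mouse, with RNA scraped from the proximal part of their small intestine. From day 21 the mice ate 1 of 2 pelleted diets for 3 weeks, and tissue was taken at 42 days. The galactose diet (GAL42, n = 12) supplied 16 en% galactose and 16 en% glucose, where en% is the share of dietary energy, and the glucose diet (GLU42, n = 11) supplied 32 en% glucose. There was no group of mice sampled before the diets began, and a scraping holds the epithelium together with other cells of the mucosa.

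Cells make cholesterol from acetyl-CoA, through mevalonate, isoprenoid pyrophosphates, squalene and lanosterol. When sterols are scarce in the endoplasmic reticulum, SCAP escorts SREBP2 to the Golgi, where the site-1 and site-2 proteases release its active part, which binds sterol regulatory elements in promoters of the pathway's genes. INSIG proteins hold SCAP in the endoplasmic reticulum when sterols are plentiful. The small intestine is a major site of cholesterol synthesis as well as of its absorption.

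Libraries held 15382583 to 17174721 counts in genes. The libraries of the GAL42 group included 1 that went against its label: replicate 12, labelled female, had 4 counts of Xist against at least 778 in each other library, and 225 counts of 4 Y-linked genes against at most 1. Without GAL42 replicate 7, edgeR called 218 of all tested genes, against 0 with it. Some other libraries that decided a value are named beside it. Enterocyte markers were detected in all libraries, with 9 of 9 markers tested and a summed level of 58700 to 82200 CPM (read counts scaled to a common library size) on galactose and 54500 to 81800 on glucose. Markers of crypt, goblet, Paneth, enteroendocrine, immune and stromal cells were detected too. Pancreatic acinar markers ranged from 0.119 to 557 CPM on galactose (mean 47.1) and from 0.0625 to 1.63 on glucose (mean 0.409). Adipocyte markers ranged from 2.43 to 8.7 CPM on galactose (mean 4.83) and from 2.51 to 43.1 on glucose (mean 8.43), summed in the same way. The highest acinar value on galactose and the highest adipocyte value on glucose thus lay far above the means of their diets. In such mixed tissue, fewer cells of a type and less RNA per cell cannot be told apart.

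Of the 27 genes, 23 had a promoter entry in the RefSeq table of GRCm38.p6, matched by symbol. Fdps, Fdft1, Sqle and Stard4 had none. In the 250 bases before the start site, the sterol regulatory element core TCACNCCA was found on either strand in 3 of these 23 genes, Srebf2, Hmgcs1 and Msmo1, and in 3.67% of the 32851 promoters of the table. The CCAAT box, read by NF-Y, was found in 19 of 23 genes and in 33.8% of all promoters. The GGGCGG box, read by Sp1, was found in 20 of 23 genes and in 32.7% of all promoters. A gene counts here if any of its promoters holds a match, while the shares are of promoters. Counted by promoter, the core was in 3 of the 29 entries of these genes, CCAAT in 19 and GGGCGG in 22. The core and CCAAT do not overlap in the sequences shown. A match is a description of these letters and no evidence of binding, and the absence of a match says nothing about the factor. The 3 promoters with the core are shown, those of the transcription factor itself and of an early and a late enzyme of the pathway. Cyp51 and Lss, which followed the other enzymes most closely in the co-variation below, had no match to the core. The upstream promoter of Insig2 is shown beside them as that of a regulator without the core, which Insig1, Scap, Mbtps1 and Mbtps2 lacked too. Capitals mark TCACNCCA and CCAAT, the latter also as ATTGG, its reading on the other strand. The sequences run 5′ to 3′ along the strand of the gene.
Srebf2, chr15:82147019-82147268, plus strand: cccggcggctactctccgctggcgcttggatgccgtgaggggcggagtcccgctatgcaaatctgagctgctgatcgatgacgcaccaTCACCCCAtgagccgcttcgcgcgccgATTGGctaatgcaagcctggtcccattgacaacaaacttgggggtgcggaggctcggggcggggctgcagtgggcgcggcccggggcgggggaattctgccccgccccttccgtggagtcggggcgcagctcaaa
Hmgcs1, chr13:119690101-119690350, plus strand: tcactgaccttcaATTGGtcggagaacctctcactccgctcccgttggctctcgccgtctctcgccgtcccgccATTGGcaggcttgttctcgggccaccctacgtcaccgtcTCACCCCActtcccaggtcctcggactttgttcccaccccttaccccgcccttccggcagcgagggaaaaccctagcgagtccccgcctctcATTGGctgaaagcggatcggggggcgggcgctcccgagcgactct
Msmo1, chr8:64733579-64733828, minus strand: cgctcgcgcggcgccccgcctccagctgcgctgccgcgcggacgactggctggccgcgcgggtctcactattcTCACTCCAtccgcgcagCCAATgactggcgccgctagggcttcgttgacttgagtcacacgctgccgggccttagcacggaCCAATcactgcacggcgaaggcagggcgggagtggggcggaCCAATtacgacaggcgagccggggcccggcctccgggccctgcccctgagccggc
Insig2, chr1:121332590-121332839, minus strand: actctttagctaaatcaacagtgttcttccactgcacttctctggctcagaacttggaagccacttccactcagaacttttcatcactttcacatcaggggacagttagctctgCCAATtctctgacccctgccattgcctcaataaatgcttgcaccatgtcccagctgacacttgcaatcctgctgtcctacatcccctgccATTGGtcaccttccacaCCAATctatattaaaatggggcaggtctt
The core began 162 bases before the start of Srebf2, 137 before that of Hmgcs1 and 177 before that of Msmo1. In Srebf2 the nearest CCAAT lay 135 bases before the start, and in Msmo1 it was 160, 96 and 55 bases before it.

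The first question was whether the pathway differed between the diets. No gene of the 27 was called by edgeR's quasi-likelihood test at a Benjamini-Hochberg adjusted p of 0.05, and the same test called 0.0% of the 13405 tested genes. At an unadjusted p under 0.05, 7 of the 27 were higher on galactose, Mvk, Mvd, Cyp51, Lss, Hmgcs1, Sqle and Pmvk, where 8.63% of all tested genes were. None of the 27 was lower at that level, against 5.72% of all tested genes. The log2 difference, galactose minus glucose, was positive for 19 of 27 genes with a median of 0.09, beside 49.5% positive and a median of -0.0017 over all tested genes. Among the 18 sterol synthesis enzymes used as a reference for co-variation (all enzymes but Ggps1 and Lbr), 15 of 18 were positive, with a median of 0.18. DESeq2 called 0 of the 26 genes it gave an adjusted p (all but Fdps) and 86 of all tested genes, limma-voom called 0 of both, and limma-voom with sample quality weights called Mvk alone of the 27, where it called 1.06% of all tested genes as higher on galactose.

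The enzymes of the mevalonate arm lay higher on galactose, 5 of 5, with a median log2 difference of 0.23. Mevalonate kinase, Mvk, which phosphorylates mevalonate, ranged from 9.65 to 15.1 CPM on galactose with a median of 12, and from 6.21 to 13.5 CPM on glucose with a median of 8.94. All 12 galactose libraries lay above the glucose median, while the ranges overlapped. The Mvk difference was 0.34 ± 0.10 (SE) on the log2 scale, with an edgeR p of 0.0026 and an adjusted p of 0.162, and the adjusted p ran from 0.0419 to 0.824 over the alternatives tried. Mvd, the mevalonate pyrophosphate decarboxylase that makes isopentenyl pyrophosphate, ranged from 7.14 to 12.5 CPM on galactose (median 10.1) and from 5.71 to 11 on glucose (median 7.32). In 11 of 12 galactose libraries Mvd exceeded the glucose median, and its difference was 0.36 ± 0.12 (edgeR adjusted p = 0.182). Hmgcs1, the cytosolic synthase that makes HMG-CoA, was the most abundant of these 5 enzymes per length of transcript, at 24.1 CPM per kb. It ranged from 61.1 to 111 CPM on galactose (median 91.7) and from 66.0 to 89.4 on glucose (median 76.9). The galactose libraries thus spanned the glucose range on both sides, and the Hmgcs1 difference was 0.19 ± 0.08 (edgeR adjusted p = 0.280). Pmvk, the kinase after Mvk, ranged from 6.01 to 11.8 CPM (median 10.5) on galactose and from 6.34 to 11.3 (median 8.44) on glucose, a difference of 0.23 ± 0.11 (edgeR adjusted p = 0.334). Acat2, which joins acetyl-CoA units ahead of HMG-CoA, differed by 0.11, with a 95% interval from -0.14 to 0.36. Acat2 shares sequence with 2 other genes, among them Acat3 at 97.7% over 1477 bases, and Hmgcs1 shares 462 bases with the antisense gene Gm48342, so their counts are uncertain where the counting could split or merge reads.

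**Figure D1:**
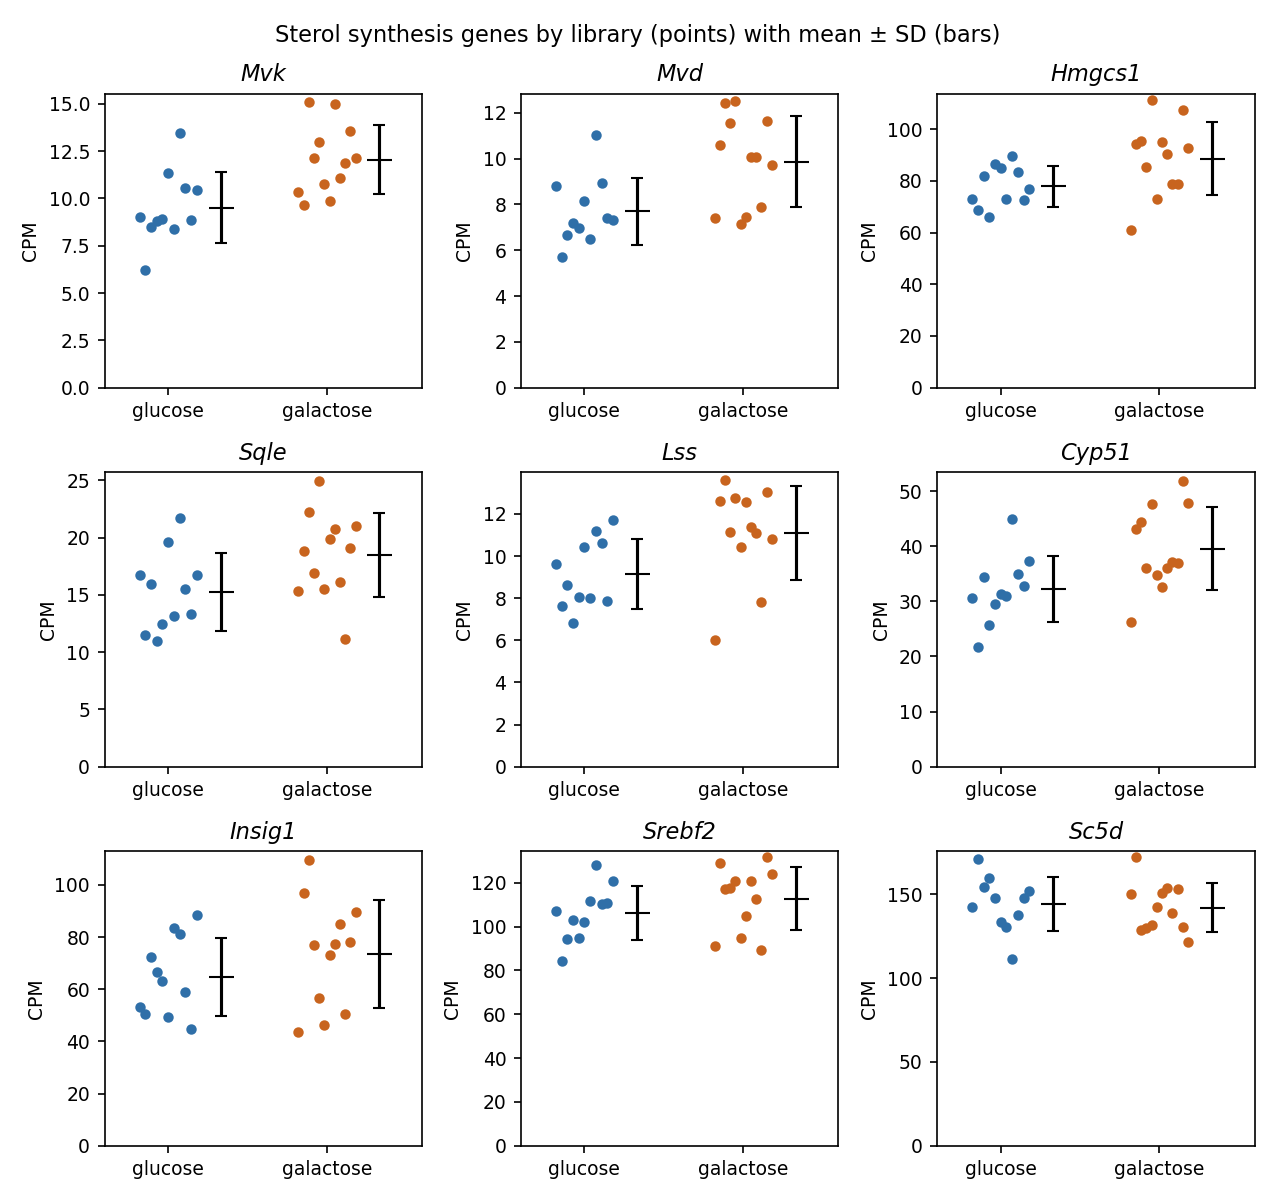
CPM (vertical axes) of 9 of the genes in each glucose library (blue, n = 11) and galactose library (orange, n = 12), with mean and SD as black bars. Galactose means lie above glucose means for Mvk, Mvd, Hmgcs1, Sqle, Lss and Cyp51 with overlapping points in each, while Sc5d has nearly the same mean in both groups (142 and 145 CPM).

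The isoprenoid steps were split, with 1 of 3 genes higher on galactose and none at an unadjusted p under 0.05. Idi1, which isomerises isopentenyl pyrophosphate, differed by -0.05 (95% interval -0.37 to 0.26), and Ggps1, which makes geranylgeranyl pyrophosphate for protein prenylation, by -0.07 (-0.23 to 0.08). Fdps, the farnesyl pyrophosphate synthase, had the lowest level of the 27 genes per length, 0.583 CPM per kb. It ranged from 0.126 to 1.44 CPM on galactose (median 1.03) and from 0.232 to 0.918 on glucose (median 0.745). Its difference of 0.44 ± 0.27 had the widest interval of the 27 genes, -0.12 to 0.998. Fdps shares sequence with 6 other genes, the longest match being 1066 bases at 96.7% with the pseudogene Gm5873, Idi1 with 4 and Ggps1 with 1, so these counts are uncertain where the counting could split reads between copies.

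Among the 12 genes of the squalene and sterol steps, 9 were higher on galactose, with a median log2 difference of 0.09. Of these, 3 passed an unadjusted p of 0.05, where 8.63% of all tested genes were higher at that level. Sqle, the squalene epoxidase that starts the oxygen-dependent steps, ranged from 11.2 to 25 CPM on galactose (median 19.0) and from 10.9 to 21.7 on glucose (median 15.5). Its ranges overlapped almost fully, and the Sqle difference was 0.28 ± 0.12 (edgeR adjusted p = 0.294). Lss, which closes the ring system to give lanosterol, ranged from 6.03 to 13.6 CPM on galactose (median 11.3) and from 6.81 to 11.7 on glucose (median 8.62). The lowest value of Lss over all libraries belonged to galactose replicate 1, and the difference was 0.28 ± 0.12 (edgeR adjusted p = 0.275). Cyp51, the lanosterol demethylase, ranged from 26.2 to 51.9 CPM on galactose (median 37.1) and from 21.7 to 45 on glucose (median 31.3), with 11 of 12 galactose libraries above the glucose median. Its difference was 0.30 ± 0.11 (edgeR adjusted p = 0.210). Fdft1, the squalene synthase that commits isoprenoids to sterols, had medians of 30.9 and 23.5 CPM and a difference of 0.26 ± 0.14, with an interval of -0.02 to 0.55. Fdft1 shares 1249 bases at 97.4% with the pseudogene Gm6781.

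The later sterol steps lay closer to 0. Msmo1, which removes methyl groups at carbon C4, differed by 0.16 ± 0.09, with medians of 72.7 CPM on galactose and 63.7 on glucose. Nsdhl and Hsd17b7, which act in the same demethylation, differed by 0.08 (-0.08 to 0.24) and -0.02 (-0.21 to 0.18). The sterol reductases Tm7sf2 and Lbr, of which Lbr is also a receptor of the nuclear lamina, differed by 0.07 (-0.11 to 0.25) and -0.01 (-0.25 to 0.24). Lbr shares 440 bases with a transcript of Dnah14, so its counts are uncertain where the counting could split reads. Ebp, the sterol isomerase, was the most abundant of the 27 genes per length, at 44.2 CPM per kb, and differed by 0.06 (-0.10 to 0.21). Dhcr7, which completes cholesterol by reducing 7-dehydrocholesterol, differed by 0.10 (-0.10 to 0.30). Sc5d, the desaturase just before Dhcr7, ranged from 122 to 173 CPM on galactose (median 141) and from 112 to 171 on glucose (median 148). Its groups overlapped through most of their range, and Sc5d differed by -0.02 (-0.16 to 0.11). By length-adjusted level Msmo1, at 33 CPM per kb, and Sc5d, at 29.9, stood near the top, and Lss, at 2.18, near the bottom of the 27.

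The regulators of SREBP processing had a median log2 difference of 0.02, and 4 of 6 were higher on galactose, none at an unadjusted p under 0.05. Srebf2, which encodes SREBP2, ranged from 89.2 to 132 CPM on galactose (median 117) and from 84.5 to 128 on glucose (median 107). The ranges of Srebf2 were nearly the same, and the difference was 0.09 ± 0.07 (-0.06 to 0.24). Insig1, the INSIG whose own gene is a classical SREBP target, ranged from 43.7 to 109.5 CPM on galactose (median 77.2) and from 44.9 to 88.5 on glucose (median 63.1). It varied more within a diet than the other regulators, with an SD of 0.39 on the log2 scale, and the difference was 0.19 (-0.11 to 0.48). Insig2, the second INSIG, ranged from 21.1 to 31.1 CPM on galactose and from 22.8 to 31.7 on glucose, a difference of -0.04 (-0.18 to 0.09). Scap, the escort, differed by -0.07 (-0.21 to 0.07). The proteases Mbtps1 (site 1) and Mbtps2 (site 2) differed by 0.01 (-0.11 to 0.13) and 0.03 (-0.20 to 0.26). Stard4, which carries cholesterol between membranes, was at 32.8 CPM per kb and differed by -0.05 (-0.20 to 0.11).

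**Figure D2:**
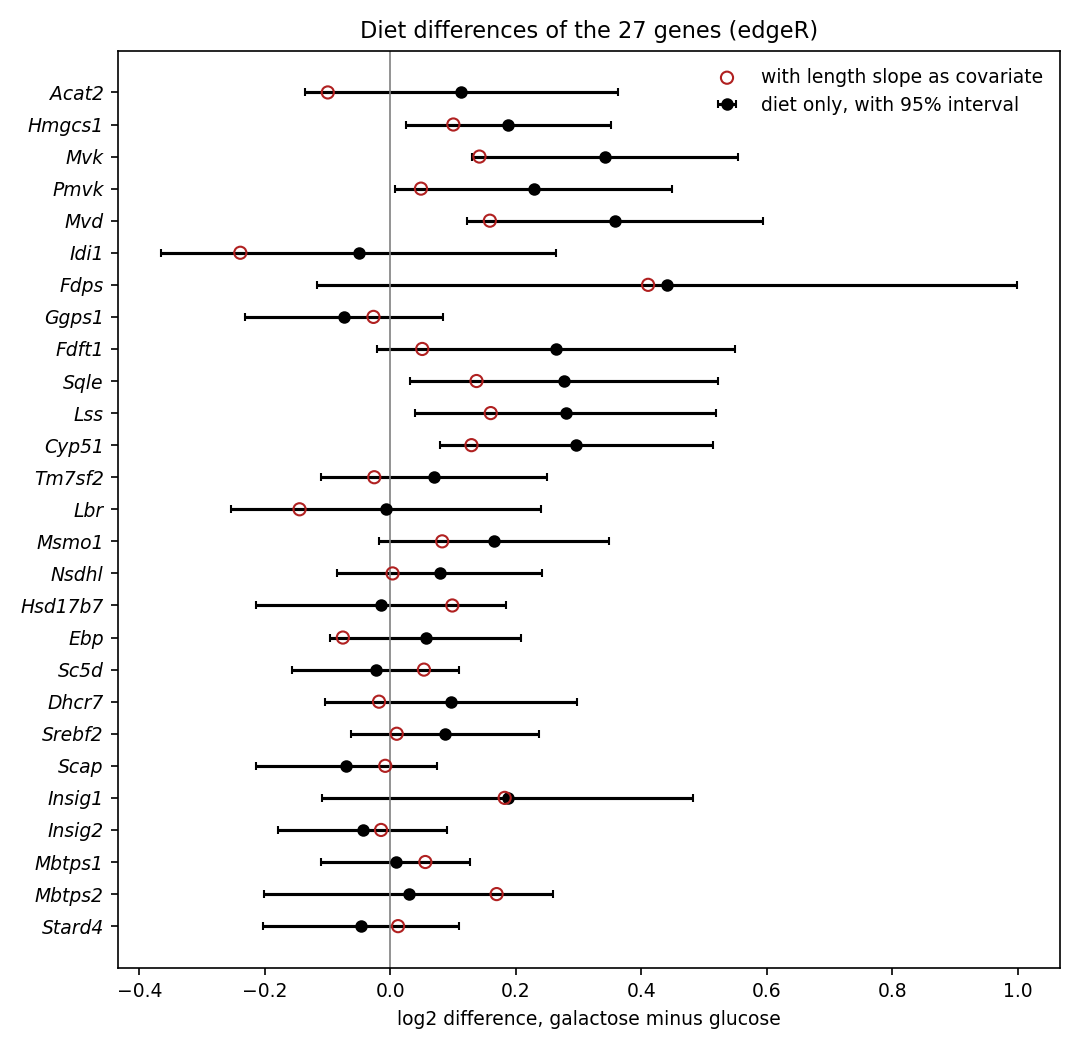
Log2 difference, galactose minus glucose (horizontal axis), of each of the 27 genes (vertical axis, in pathway order) from edgeR, with its 95% interval (black), and the same difference with the length slope of each library as a covariate (red open circles). Of the 27 black points 19 lie right of 0, and the red circles of Mvk, Mvd, Cyp51, Lss, Sqle and Pmvk lie closer to 0 than the black points.

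One property of the libraries moved with the diets. For each library, the deviation of every gene's log2 CPM from its average was regressed on the log2 length of its transcript. A positive coefficient, called the length slope, means relatively more counts in long transcripts. It was -0.029 ± 0.055 (SD, n = 12) on galactose and 0.032 ± 0.045 (SD, n = 11) on glucose, with overlapping ranges of -0.123 to 0.0795 and -0.0600 to 0.0939. With this slope as a covariate, edgeR placed 0 of the 27 genes and 3.8% of all tested genes as higher at an unadjusted p under 0.05, the median difference was 0.05 and 18 of 27 were positive. Mvk then differed by 0.14, Mvd by 0.16, Cyp51 by 0.13, Lss by 0.16, Hmgcs1 by 0.10, Sqle by 0.14 and Pmvk by 0.05, while Insig1 stayed at 0.18. The sign turned for 7 genes, to -0.10 for Acat2, -0.08 for Ebp, -0.03 for Tm7sf2 and -0.02 for Dhcr7, and to 0.10 for Hsd17b7, 0.05 for Sc5d and 0.01 for Stard4. Without GAL42 replicate 5, whose slope was the lowest of all libraries, 4 of the 27 genes, Mvk, Mvd, Cyp51 and Lss, were higher at an unadjusted p under 0.05, where 7.69% of all tested genes were. Without GAL42 replicates 7 and 12 together, the Mvk difference was 0.36 with an edgeR adjusted p of 0.0748. In that fit 0 of the 27 genes were called, where 321 of all tested genes were called in either direction. Mvk, Mvd, Cyp51, Lss and Pmvk were then higher at an unadjusted p under 0.05, as were 10.7% of all tested genes.

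The second question was whether the genes varied together from mouse to mouse within a diet. Each gene's log2 CPM was centred on the mean of its diet and correlated over the 23 libraries with the mean of the 18 sterol enzymes, leaving the gene itself out of that mean. Of the 27 genes, 23 had a positive Pearson r, with a median of 0.61, against a median of 0.02 over all tested genes. By a two-sided permutation test within diets, adjusted over all 13405 genes, 10 of the 27 were called, all 10 with a positive r, where 0.306% of tested genes were called with a positive r and 0.485% with a negative one. The 10 were Cyp51, Lss, Srebf2, Nsdhl, Mvd, Hmgcs1, Fdft1, Acat2, Msmo1 and Sqle. Each library gives the value of every gene, so r includes any variation between libraries that is common to many genes.

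**Figure D3:**
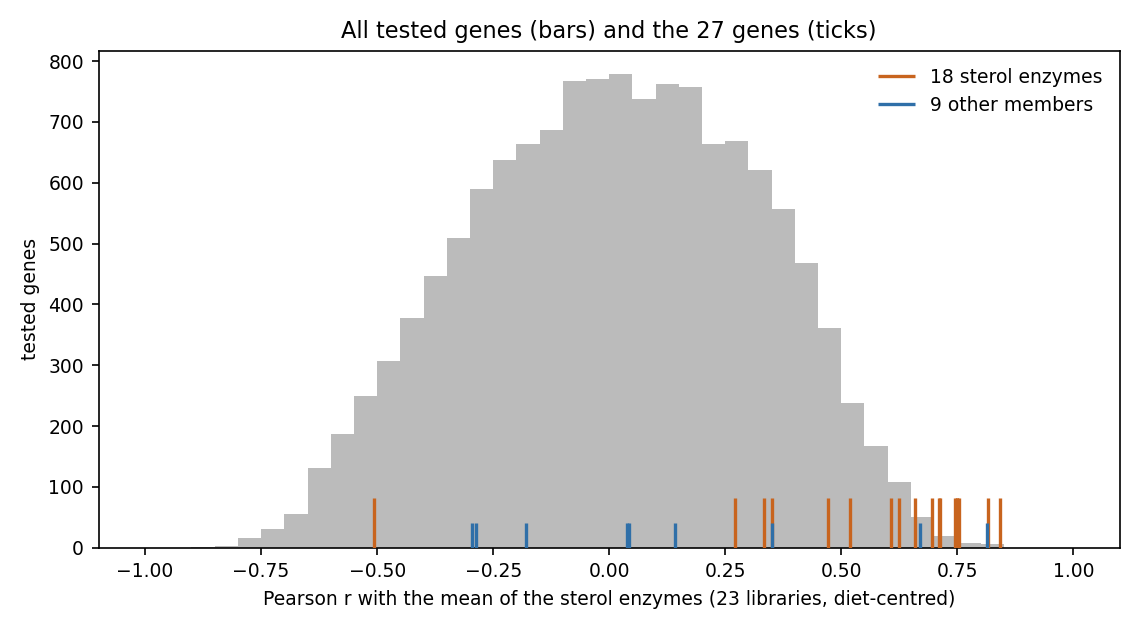
Number of tested genes (vertical axis) by Pearson r with the mean of the sterol enzymes (horizontal axis), with the 18 sterol enzymes (orange ticks) and the 9 other genes (blue ticks) marked. Cyp51 at 0.84, Lss at 0.82 and Srebf2 at 0.81 lie at the right end of the distribution, and Sc5d at -0.51 lies on its left.

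Cyp51 followed the other enzymes most closely, with r = 0.84 and Spearman's rho = 0.82 (permutation p = 2e-05 for both, adjusted p = 0.0168 and 0.0158), and 0.0149% of tested genes had an r as high. Its r was 0.83 in the galactose libraries and 0.88 in the glucose libraries. Lss had r = 0.82 and rho = 0.79 (adjusted permutation p = 0.0168 and 0.0158). Srebf2, which is not an enzyme and had no diet difference past the threshold, had r = 0.81 and rho = 0.78 (adjusted permutation p = 0.0168 and 0.0230), with 0.84 on galactose and 0.78 on glucose. Nsdhl had r = 0.75 and rho = 0.80, Mvd 0.75 and 0.77, Hmgcs1 0.75 and 0.66, and Fdft1 0.75 and 0.71. Acat2 had r = 0.71 and rho = 0.66, Msmo1 0.71 and 0.70, and Sqle 0.69 and 0.73. By rank, Acat2 (adjusted permutation p = 0.0516) and Hmgcs1 (0.0651) did not pass. Insig1 had r = 0.67 (adjusted permutation p = 0.0647), and its r was 0.81 on galactose and 0.40 on glucose, a difference that was not tested. Idi1 (0.66), Dhcr7 (0.63), Mvk (0.61), Pmvk (0.52) and Fdps (0.47) were positive and did not pass the adjusted threshold.

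The remaining genes did not follow the enzymes closely. Lbr and Ebp had r = 0.35, Tm7sf2 0.33, Hsd17b7 0.27, Mbtps1 0.14, and Ggps1 and Scap 0.04. Stard4 had r = -0.18, Mbtps2 -0.29 and Insig2 -0.30. The lowest r was that of Sc5d, at -0.51 with rho = -0.46 (adjusted permutation p = 0.170), and 95.3% of tested genes had an r at least as high. It was -0.27 on galactose and -0.81 on glucose, which was not tested as a difference. Sc5d is a late enzyme of the same pathway, and its level per length was among the 4 highest of the 27.

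The number of these calls changed with the libraries used. The 2 libraries whose diet-centred enzyme mean lay farthest from its median were GAL42 replicate 1 and GLU42 replicate 8. Leaving them out also narrows the range of that mean. Without them the r of Cyp51 was 0.74, of Srebf2 0.75, of Lss 0.69, of Nsdhl 0.79 and of Msmo1 0.48. The median r of the 27 genes was then 0.48, and the permutation test called 0 of the 27 and 0 of all tested genes, with 14 of the 27 and 9.59% of all tested genes at an unadjusted p under 0.05. With the length slope removed by regression the test called 0 of the 27 and 0 of all tested genes, with 15 of the 27 and 7.86% of all tested genes at an unadjusted p under 0.05. The median r was then 0.54, that of Insig1 0.81, that of Hsd17b7 0.72 and that of Ebp 0.03. Within the galactose libraries alone, and within the glucose libraries alone, 0 of all tested genes were called and 13 of the 27 had an unadjusted p under 0.05 in each, where 6.65% of all tested genes did on galactose and 14.3% on glucose. The median r of the 27 was 0.55 and 0.59. With 1 library left out at a time, the number called lay between 3 (without GAL42 replicate 3, GLU42 replicate 8 or GLU42 replicate 9) and 13 with a positive r (without GAL42 replicate 2, where Sc5d was called too, with r = -0.68). Of all tested genes, 0.0671% were called with a positive r in each of the first 3 cases and 1.95% in the last. The number of the 27 called was 4 without GLU42 replicate 2, and 6 without GAL42 replicate 1 or GLU42 replicate 4. In these 3 cases, in that order, 0.0746%, 0.231% and 0.179% of all tested genes were called with a positive r. Cyp51, Lss and Srebf2 were called with each single library left out.

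Pairs of genes gave the same description in more detail. Over the 153 pairs of the 18 enzymes the median r was 0.43 with 132 positive pairs, over the 351 pairs of the 27 genes it was 0.21 with 247 positive, and over all pairs of tested genes it was -0.003. The closest pair was Hmgcs1 with Fdft1, at r = 0.84, followed by Hmgcs1 with Lss (0.79), Fdft1 with Lss (0.78), Srebf2 with Mvd and with Cyp51 (both 0.78) and Insig2 with Sc5d (0.78). Tm7sf2, Ebp and Dhcr7 were also close, and their pairs had r = 0.76 (Tm7sf2 and Ebp), 0.73 (Ebp and Dhcr7) and 0.72 (Tm7sf2 and Dhcr7). The most opposed pairs were Mvk with Sc5d (-0.68) and Mvk with Insig2 (-0.61). Of the regulators, Srebf2 and Insig1 had r = 0.66, Scap and Mbtps1 0.54, Srebf2 and Scap 0.04, and Insig1 and Insig2 -0.19. The first principal component held 38.1% of the variance of the 27 genes and 48.1% of that of the 18 enzymes.

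**Figure D4:**
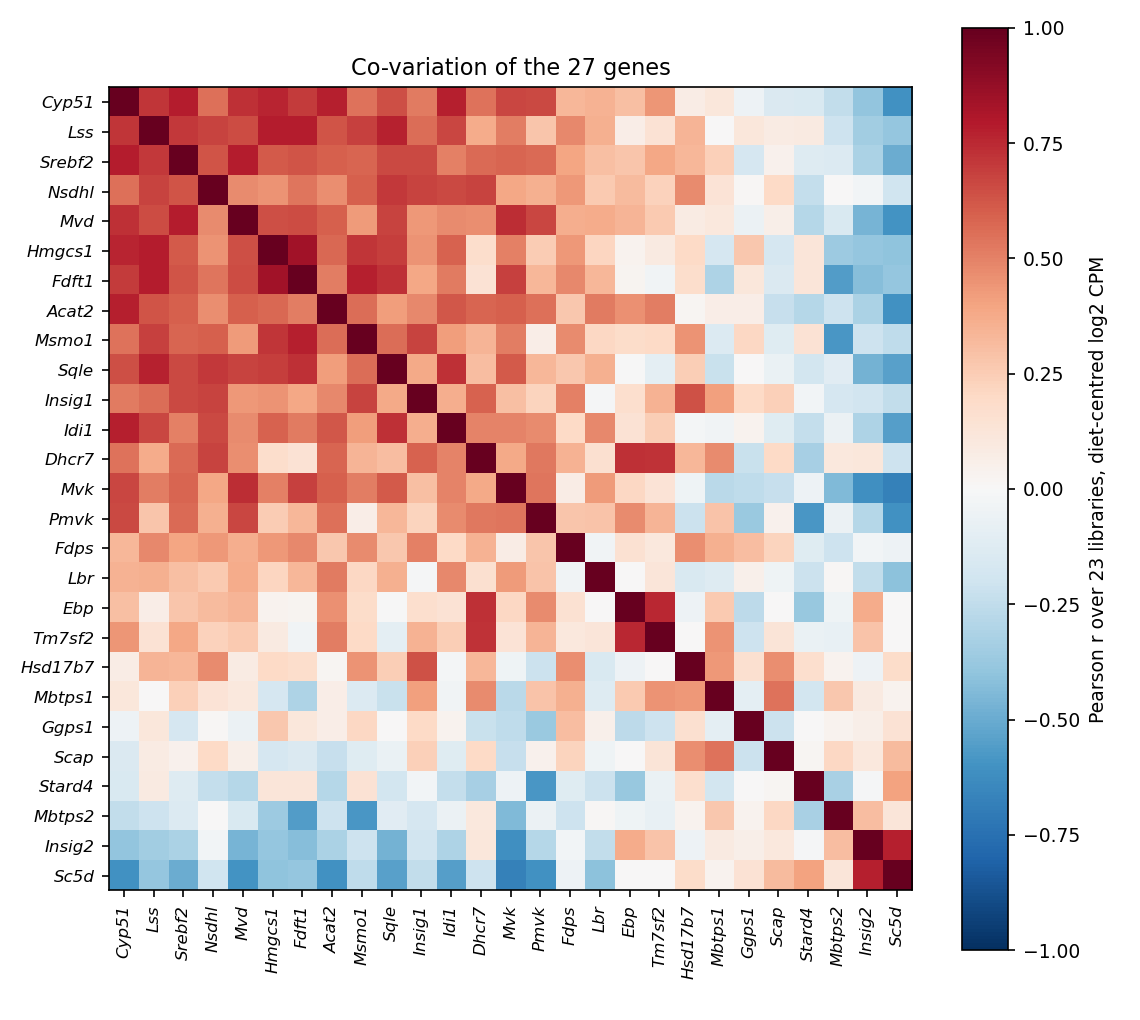
Pearson r between each pair of the 27 genes over 23 libraries, from diet-centred log2 CPM, with genes on both axes ordered by their r with the sterol enzyme mean and colour from -1 (blue) to 1 (red). A red block holds Cyp51 to Sqle, the squares where Tm7sf2, Ebp and Dhcr7 meet are red too, and the rows of Sc5d and Insig2 are blue against most of the first block and red against each other.

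By library, the mean log2 CPM of the 18 enzymes was 4.33 ± 0.20 (SD, n = 12) on galactose, from 3.87 in replicate 1 to 4.58 in replicate 3 with a median of 4.40. On glucose it was 4.17 ± 0.16 (SD, n = 11), from 3.95 in replicate 2 to 4.46 in replicate 8 with a median of 4.16. The ranges overlapped, and 10 of 12 galactose libraries lay above the glucose median. GAL42 replicate 1 had the lowest value of its diet for 10 of the 27 genes, among them Lss, Cyp51, Hmgcs1, Fdft1, Msmo1 and Insig1. GLU42 replicate 8 had the highest value of its diet for 12 of the 27, among them Mvk, Mvd, Sqle, Cyp51 and Srebf2, and the lowest for Sc5d, Insig2 and Stard4. Within a diet, the SD of log2 CPM had a median of 0.25 over the 27 genes, from 0.13 for Mbtps1 to 0.67 for Fdps, and of 0.24 over all tested genes.

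**Figure D5:**
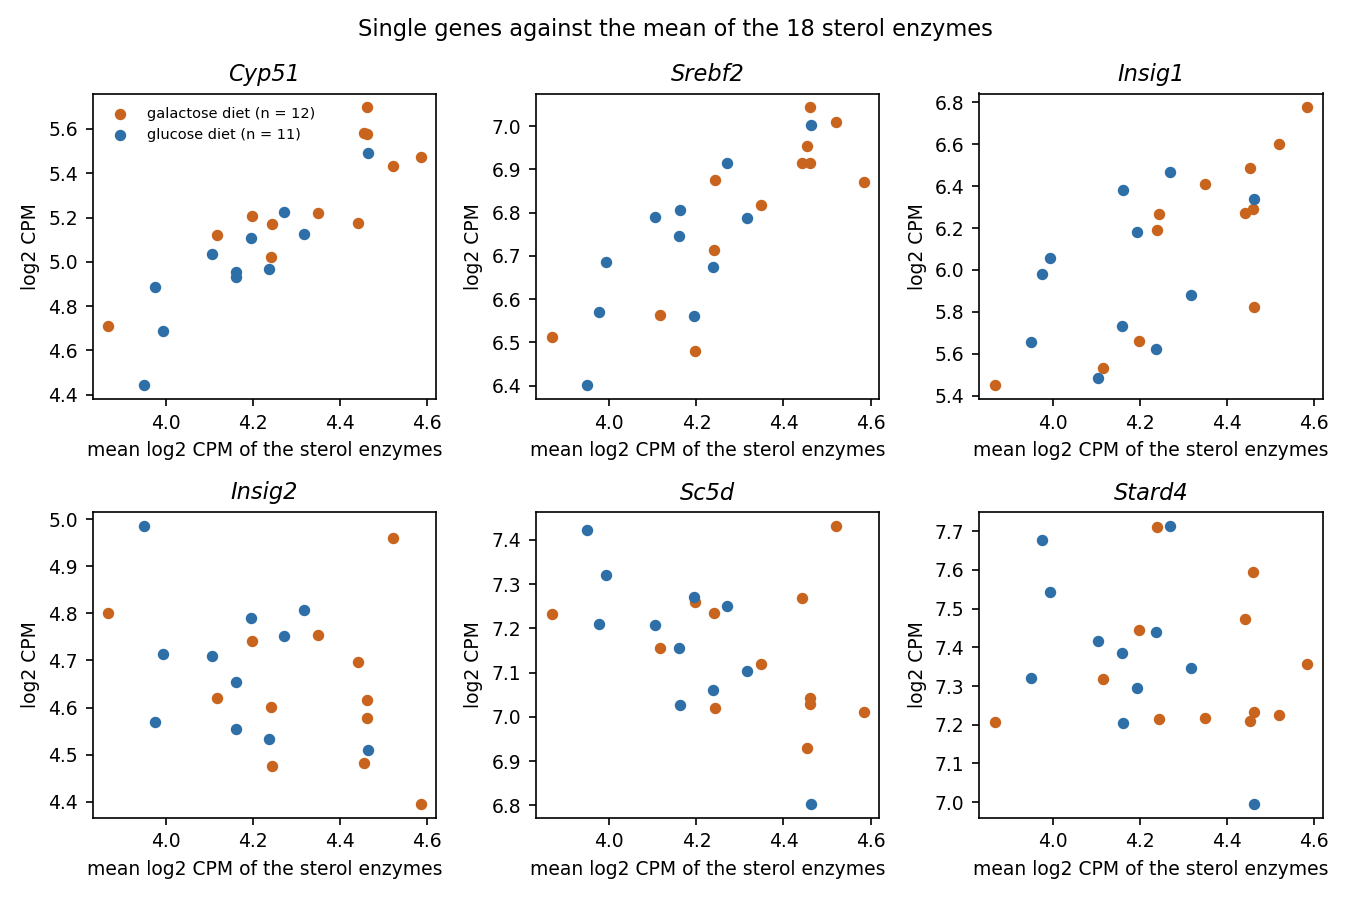
Log2 CPM of 6 genes (vertical axes) against the mean log2 CPM of the 18 sterol enzymes (horizontal axes, with Cyp51 and Sc5d included in that mean), for galactose (orange, n = 12) and glucose (blue, n = 11) libraries. Cyp51, Srebf2 and Insig1 are higher where the enzyme mean is higher, and Sc5d tends to be lower, with GLU42 replicate 8 as its lowest glucose value.

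Cell type markers and the length slope moved with these levels to different degrees, described here by r over 23 diet-centred libraries. The enzyme mean had r = -0.57 with the length slope, 0.33 with the mean of 9 crypt and dividing cell markers, -0.25 with that of 9 enterocyte markers and 0.37 with that of the B and plasma cell markers. Without the 2 farthest libraries these were -0.50, 0.08, -0.14 and 0.16. Some single genes went with the markers more closely than the mean did, and others, such as Nsdhl (0.05 with the enterocyte and 0.03 with the crypt markers), less. Sc5d had r = 0.56 with the enterocyte markers and -0.67 with the crypt markers, and Insig2 had 0.48 and -0.71. Lbr had the opposite pattern, -0.67 and 0.70, and Mvk had -0.50 and 0.61. Ebp had r = 0.75 with the enteroendocrine markers, and Tm7sf2 had 0.61. GLU42 replicate 8, with the highest enzyme mean of its diet, had the highest mean crypt marker level of the 23 libraries, 4.65 on the log2 CPM scale, and the lowest mean enterocyte marker level, 12.1. Its Paneth (7.96), smooth muscle (4.61) and macrophage and dendritic (4.36) marker levels were also the highest of the 23. The crypt markers summed to 161 to 362 CPM on galactose and 192 to 415 on glucose, with none at 0 in all libraries. The part of the markers in the co-variation was not tested.

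The genes outside the 27 whose levels were most like the enzyme mean, among named genes of at least 1 CPM, were led by Cd81, a tetraspanin of the cell surface, with r = 0.85 and rho = 0.92 over the 23 libraries (adjusted permutation p = 0.0168 and 0.0158). Cd81 differed by 0.002 on the log2 scale between the diets, with ranges of 115 to 160 CPM on galactose and 112 to 181 on glucose. Aacs, which activates acetoacetate for sterol and fatty acid synthesis, had r = 0.81, and Pdss1, which makes the isoprenoid tail of ubiquinone, had 0.78. Ergic1, of the compartment between endoplasmic reticulum and Golgi, had 0.79, the protease Prss8 0.77, Rangap1 0.77, Cotl1 0.76, Ube2s 0.76, Sil1 0.76, Shmt2 0.75, Got2 0.74 and Tufm 0.74. The 4 least like were Fryl (-0.86), Casz1 (-0.82), Styk1 (-0.82) and Rapgefl1 (-0.81).

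Neighbouring pathways were described from lists of genes, and edgeR called 0 genes in each at an adjusted p of 0.05. Over all tested genes 49.5% were higher on galactose, with 8.63% higher and 5.72% lower at an unadjusted p under 0.05. Of 17 tested genes of sterol sensing and turnover, 7 were higher and 10 lower on galactose, with 0 and 1 at an unadjusted p under 0.05. That gene was Sp1, a general promoter factor, at 54.9 ± 6.23 CPM on galactose and 63.2 ± 5.04 on glucose (SD, n = 12 and 11), a log2 difference of -0.20 ± 0.06 (edgeR adjusted p = 0.159, from 0.0337 to 0.750 over the alternatives). Without GAL42 replicate 7 the difference of Sp1 was -0.23 with an edgeR adjusted p of 0.0401. The next smallest p in that list were those of Rnf145 (0.19), Erlin2 (-0.07) and Erlin1 (0.08), given as log2 differences. Of 16 genes of intracellular sterol movement and esterification, 8 were higher and 8 lower and none passed an unadjusted p of 0.05, with log2 differences of 0.11 for Npc2, 0.21 for Gramd1a, -0.10 for Scp2 and -0.06 for Vapa. The genes of sterol export and LXR, the nuclear receptor that senses oxysterols, were lower in 7 of 10. Of these, 2 had an unadjusted p under 0.05, where 5.72% of all tested genes were lower at that level.

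Those 2 were Lpcat3, a phospholipid acyltransferase, at -0.17 ± 0.07 (412 ± 54.2 CPM on galactose, 464 ± 48.7 on glucose, SD), and Abcg1, a cholesterol exporter, at -0.37 ± 0.16 (2.17 ± 0.672 and 2.80 ± 0.588 CPM). Mylip and Srebf1 differed by -0.25 and -0.10. The mean of this list had r = -0.68 with the mean of the sterol enzymes over the 23 libraries, and -0.54 without the 2 farthest libraries. Its single genes followed this unevenly. Their median r was -0.19, and 1 of the 10 had a positive r. Mylip had r = -0.51, Srebf1 -0.09, Lpcat3 -0.05 and Abcg1 -0.04. Abca1, the exporter of cholesterol to apolipoprotein A-I, was singled out after its values were seen: it had r = -0.73 and rho = -0.75 with the enzyme mean (adjusted permutation p = 0.0261 and 0.0274). Its level was 31.5 ± 11.2 CPM on galactose and 36.8 ± 13.7 on glucose, from 13.2 to 57.1 over the glucose libraries. The lowest glucose value of Abca1 belonged to replicate 8, where the sterol enzymes had their highest mean.

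Among the isoprenoid branches, which feed ubiquinone, dolichol and prenylated proteins, 11 of 15 genes were higher on galactose, beside 49.5% of all tested genes. Of the 15, 1, Pdss1, had an unadjusted p under 0.05, where 8.63% of all tested genes were higher at that level. Pdss1 had 27.3 ± 3.32 CPM on galactose and 24.7 ± 2.63 on glucose, a log2 difference of 0.15 ± 0.07 (edgeR adjusted p = 0.334). Nus1, Coq2 and Pggt1b differed by 0.07, 0.11 and -0.08. The mean of that list had r = 0.54 with the sterol enzyme mean, and 0.55 without the 2 farthest libraries. Of the acetyl-CoA supply, Slc25a1, the citrate carrier, differed by 0.12 and Acly, which splits citrate to acetyl-CoA in the cytosol, by 0.09, neither at an unadjusted p under 0.05. Of 9 fatty acid synthesis genes on the SREBP1 side, 8 were lower on galactose. Of these, 2 passed an unadjusted p of 0.05, where 5.72% of all tested genes were lower at that level. Me1, the malic enzyme that supplies NADPH, was at 12.8 ± 4.42 CPM on galactose and 21.0 ± 6.56 on glucose, a log2 difference of -0.71 ± 0.17 (edgeR adjusted p = 0.135, from 0.0181 to 0.736 over the alternatives). DESeq2 (adjusted p = 0.0181), limma-voom with sample quality weights (0.0444) and edgeR without GAL42 replicate 7 (0.0401) called Me1 as lower on galactose. Scd1, the stearoyl-CoA desaturase, had a median of 2.72 CPM on galactose and 5.27 on glucose, and its difference of -2.50 rested on GLU42 replicate 1, at 149.8 CPM. Without that library it was -0.63. Scd2 and Fasn differed by -0.24 and -0.18, the latter between -0.24 and 0.01 with single libraries left out. The value of 0.01 for Fasn was that without GLU42 replicate 1, which held the highest glucose value of Fasn, 74.87 CPM. The mean of the fatty acid list had r = 0.23 with the sterol enzyme mean.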

How the data were processed

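Per the labels, each mouse gave 1 RNA-seq library of a small intestine scraping. As the authors deposited them, the values are raw counts of reads per gene, in a table for each library. Per the submitters' processing notes STAR, HTSeq and the build GRCm39 were used. For tool versions, annotation release and strand setting the entry is: not given in the sources used here. Rows that name no gene, 5 per table, held 13.5% of reads and were left out. The members and gene lists were chosen with earlier results of these data known. Diets were compared over all 23 libraries with edgeR 4.0.16 in R 4.3.3 (filterByExpr, TMM, quasi-likelihood F test, diet as the only term), with Benjamini-Hochberg adjustment over 13405 genes and a threshold of 0.05. The SE is the log2 difference over the square root of F. Each mouse is a replicate, and a log2 difference rests on 15382583 to 17174721 counts in genes per library. CPM values are scaled by TMM, and log2 CPM uses a prior count of 2. Co-variation used 100000 permutations of libraries within diets. Alternatives were other scalings, filters, DESeq2 1.42.0, limma 3.58.1 with voom, a robust fit, the length slope as a covariate, and left-out libraries. Transcript lengths came by identifier from an annotation of GRCm38, which gave lengths only. Near copies were found by aligning transcripts of that annotation. Beside the members, the rule names the 4 genes of smallest unadjusted p in each pathway list, the 12 genes most and the 4 least like the sterol enzyme mean, and promoters with the core motif. Some genes the rule takes are not reported here. The tests were also tried on simulated data.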

Additional observations from a re-analysis of the deposited data

How the results depend on the processing

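No paired analysis was possible because the labels give each mouse a number of its own, and the replicate numbers used here only count libraries within a diet and pair no mice. Over all tested genes edgeR called 0, DESeq2 86, limma-voom with sample quality weights 167, and edgeR 0 to 218 with single libraries left out (218 without GAL42 replicate 7) and 321 without GAL42 replicates 7 and 12. Of the 27 genes, sample quality weights called 1 (Mvk, 0.39, adjusted p = 0.0419), and 0 of those with an adjusted p were called in each other fit. The count at an unadjusted p under 0.05 was 0 with the length slope as a covariate and 4 to 10 with single libraries left out, where the median difference was 0.06 to 0.11. The sign turned for Mbtps1 with no filter on low counts (-6.842e-05), for Lbr with limma-voom (0.0014) and with quality weights (0.0677), and for Idi1 with quality weights (0.0543). With the length slope as a covariate it turned for Acat2 (-0.0999), Tm7sf2 (-0.0258), Hsd17b7 (0.0986), Ebp (-0.0759), Sc5d (0.0533), Dhcr7 (-0.0182), Stard4 (0.0121), Npc2 (-0.0190) and Coq2 (-0.0264). With single libraries left out the ranges that include 0 were Lbr -0.0562 to 0.0494, Hsd17b7 -0.0568 to 0.0167, Mbtps2 -0.0337 to 0.0658, Mbtps1 -0.0130 to 0.0295, Idi1 -0.117 to 0.0186, Sc5d -0.0605 to 0.0034 and Fasn -0.235 to 0.0119. The median r of the 27 genes was 0.48 without the 2 farthest libraries and 0.56 to 0.62 with single libraries left out. The median r over pairs of enzymes was 0.33 with the length slope removed and 0.29 without the 2 farthest libraries. Of the 27 genes, co-variation called 10 with a positive r, where 0.306% of all tested genes were. It called 0 of the 27 and 0 of all tested genes in the GAL42 libraries only and in the GLU42 libraries only. The same held with the length slope removed and without the 2 farthest libraries. With the slope removed, the number of resamples limited how low an adjusted p could go. With single libraries left out it called 3 to 13 of the 27, and 0.0671% to 1.95% of all tested genes, with a positive r. The cause of these changes was not tested, though fits within a diet use fewer libraries. Fdps had no value under the filter of 1 CPM in 11 libraries and no adjusted p from DESeq2. Depth limits the precision for Fdps, at under 1.5 CPM in each library.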
